A study of Mus musculus with 576 samples.

Results

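Kit and the other surface markers of blood progenitors were followed in cultured erythroid progenitors of the mouse, as 10 genes that encode proteins used to sort, stain or deplete progenitor cells. The genes were Kit, Cd24a, Cd34, Cd44, Cd48, Cd93, Adgrg1, Fcgr3, Ptprc and Itgam, taken by their symbols in the deposited count table, where they filled 11 of 49466 gene rows because Itgam names 2 rows. Of these rows, 10 passed the filter on low counts, as did 20040 rows of the whole table, and the second Itgam row did not.

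The cells came from the liver of C57/Bl6J mouse embryos at embryonic day 14.5 and were sorted to enrich BFU-E, the burst forming erythroid progenitors that stand at the start of red cell production. All groups shared this sort and a medium with 2 U/mL of erythropoietin, 100 ng/mL of stem cell factor (SCF) and 40 ng/mL of IGF1, a growth factor related to insulin. The dexamethasone groups also received 100 nM of this synthetic glucocorticoid for 24, 48 or 72 hours (days 1, 2 and 3), and the control groups were kept without it for the same times. Libraries of polyadenylated RNA were made cell by cell in 6 plates with 96 wells each. Each day and treatment had its own plate, so a plate cannot be told apart from its group. Whether livers were pooled is not given in the sources used here.

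A total of 563 cells passed the filters, with 94, 92 and 94 from cultures with dexamethasone in day order and 94, 96 and 93 from control cultures. A kept cell held 66140 to 3757116 counts, with a median of 1092431. Erythroid genes were present on every plate: Gata1, the central erythroid transcription factor, was at 264 to 312 CPM (counts scaled to the total of the plate) on dexamethasone plates and at 323 to 569 CPM on control plates. Markers of other lineages were present too. At least 2 of 14 neutrophil and monocyte markers at 10 CPM or more were carried by 10, 5 and 11 cells of the dexamethasone plates and by 17, 0 and 11 cells of the control plates. At least 2 of 10 mast cell and basophil markers were carried by 2, 10 and 3 cells with dexamethasone and by 6, 0 and 2 control cells. At least 2 of 10 megakaryocyte markers, several of which early progenitors can share, were carried by 32, 42 and 41 cells with dexamethasone and by 37, 40 and 22 control cells. The same 96 pairs of index sequences served every plate.

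Kit encodes the receptor tyrosine kinase CD117, which binds SCF and keeps early erythroid progenitors alive and dividing, and erythroid cells lose it as they mature. CD24, the product of Cd24a, is a small anchored glycoprotein that is low on the earliest erythroid progenitors of fetal liver and high on later ones. CD34 and CD93 mark early multipotent progenitors, whereas CD16 (Fcgr3), CD11b (Itgam) and CD45 (Ptprc) are familiar from myeloid cells and other leukocytes. Per the labels' protocols, cells carrying CD3e, CD45R (an isoform of CD45), Ly-6G, CD11b, Ter119, Sca-1, CD16/32 or CD41 were depleted before the sort. The sort used CD117, CD71 and CD24. The mRNA levels given here are those after 24 to 72 hours of culture.

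The 300 bases around a RefSeq start of 3 of these genes are printed because their mRNA levels set the groups or the days apart. Kit and Cd48 had higher plate levels with dexamethasone on each day. Cd34, like Cd93, was at its highest on day 1 in both treatments. Ptprc was too, but in control only at 26.7 CPM against 26.1 CPM on day 3. RefSeq gave a window of 300 bases, 250 before the start and 50 after it, for 8 of the 10 genes on the build GRCm38.p6. It listed 2 windows for Kit, of which only the first is printed and was searched. Capitals mark the letters GATAA, the core that GATA factors bind, or AGGAAG, a core of ETS factors, on either strand, so that AGGAAG may read CTTCCT.
Kit (chr5:75574737-75575036, plus strand): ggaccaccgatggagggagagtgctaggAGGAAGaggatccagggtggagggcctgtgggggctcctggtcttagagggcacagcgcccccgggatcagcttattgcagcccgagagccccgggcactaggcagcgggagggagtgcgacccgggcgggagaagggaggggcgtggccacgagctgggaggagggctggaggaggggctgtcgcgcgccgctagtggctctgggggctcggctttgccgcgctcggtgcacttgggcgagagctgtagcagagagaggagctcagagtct
Cd48 (chr1:171681742-171682041, plus strand): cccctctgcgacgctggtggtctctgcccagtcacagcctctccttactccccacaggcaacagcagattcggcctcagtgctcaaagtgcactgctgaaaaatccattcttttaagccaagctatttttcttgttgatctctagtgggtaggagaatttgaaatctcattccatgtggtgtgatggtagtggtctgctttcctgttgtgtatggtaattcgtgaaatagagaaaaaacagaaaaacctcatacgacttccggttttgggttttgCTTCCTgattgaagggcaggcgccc
Cd34 (chr1:194938571-194938870, plus strand): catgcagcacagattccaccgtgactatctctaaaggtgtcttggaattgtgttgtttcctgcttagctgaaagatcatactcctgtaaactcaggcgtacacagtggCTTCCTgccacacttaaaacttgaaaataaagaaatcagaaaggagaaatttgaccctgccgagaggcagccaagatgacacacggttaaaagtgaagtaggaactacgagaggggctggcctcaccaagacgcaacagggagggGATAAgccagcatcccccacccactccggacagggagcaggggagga
The letters AGGAAG stood once in each of these 3 windows and in 35.4% of 32851 RefSeq mouse promoters of the same length. GATAA stood once in the Cd34 window and not in those of Kit and Cd48, against 25.4% of all promoters. TGTTCT, a half-site of the glucocorticoid receptor, was searched on both strands as well and stood in none of the 3 windows and in 19% of all promoters. Matching letters in a window of this length do not say whether a factor binds there.

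Levels of the 10 genes were compared with each other per kilobase of exon, as CPM per kb of the summed counts of a plate. Cd24a was highest, at 253 to 1621 CPM per kb over the 6 plates. Adgrg1 at 53 to 76, Cd44 at 39 to 56.6, Kit at 5.56 to 82.9 and Cd48 at 2.5 to 73.8 CPM per kb followed, and their ranges over plates overlapped. Cd34 reached 1.38 to 24.6 CPM per kb and Fcgr3 0 to 23, ranges that overlapped those of Kit and Cd48. Ptprc at 0.541 to 1.46, Cd93 at 0 to 1.71 and Itgam at 0 to 1.6 CPM per kb lay at the bottom, also with overlapping ranges. The length is that of all annotated exons of a gene joined, so the order depends on it. It was 18313 bases for Ptprc, and 5024 for Itgam, of which 1574 are shared with no other gene. The second Itgam row, which the GENCODE vM21 annotation names Gm49368, had no more than 2 counts on any plate.

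**Figure D1:**
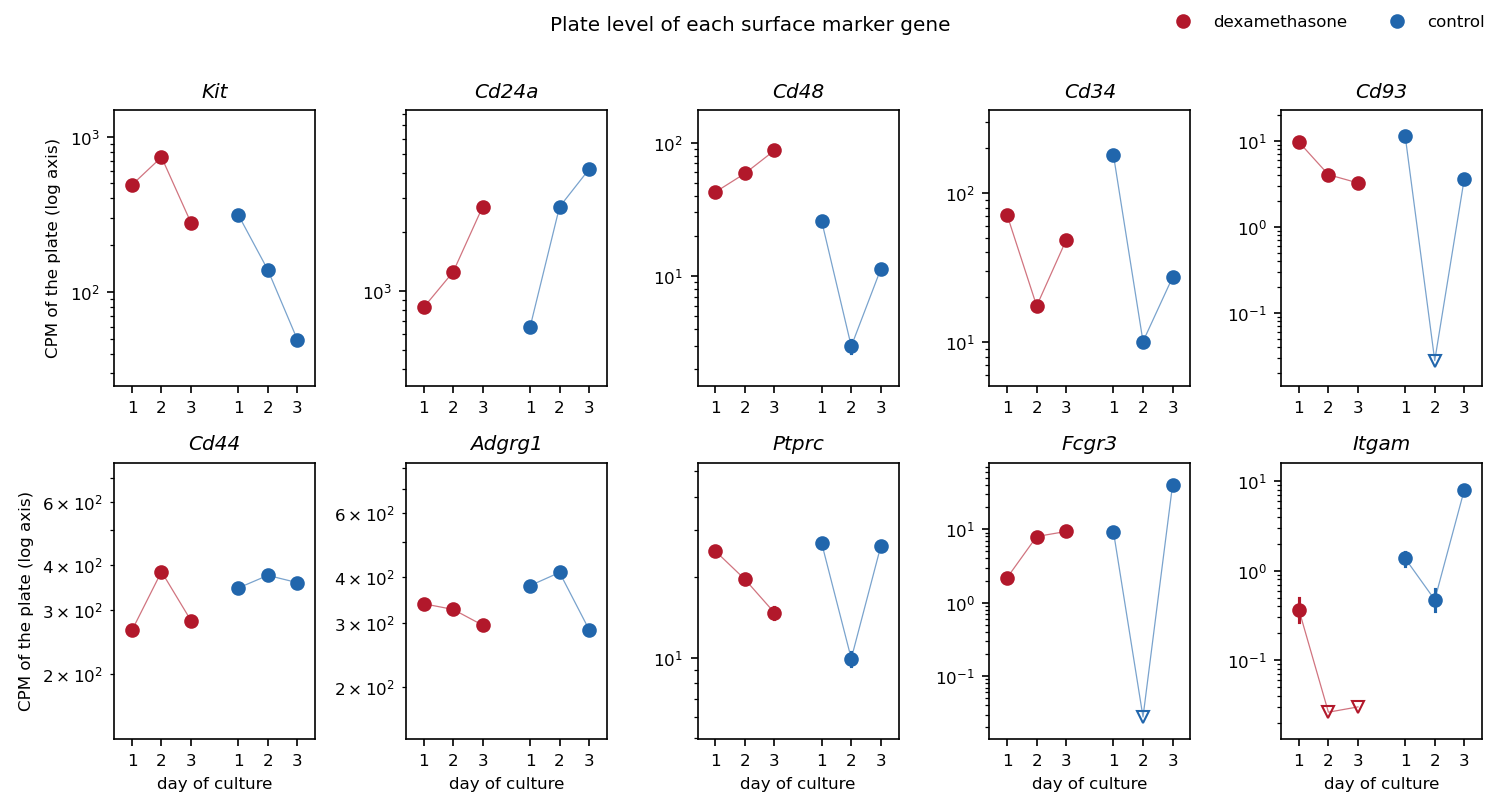
Level of each gene in CPM (log axis, each panel with its own range) by day of culture, with 1 point per plate, dexamethasone in red and control in blue. Bars are exact Poisson intervals at 95%, which cover counting error only, and open triangles mark plates with 0 counts, drawn at the level of 3 counts. Kit and Cd48 sit higher with dexamethasone on each day, and Cd93 and Fcgr3 have 0 counts on the control plate of day 2.

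Kit, on chromosome 5 from 75574916 to 75656722 (GRCm38, plus strand), had a higher level with dexamethasone on each of the 3 days, and the difference was larger on days 2 and 3 than on day 1. The plate level was 489, 738 and 279 CPM with dexamethasone on days 1, 2 and 3, against 314, 139 and 49.5 CPM in control cells. The groups overlapped, since the dexamethasone plate of day 3 was below the control plate of day 1. Dexamethasone cells thus had 1.56, 5.3 and 5.64 times the control level of the same day, or log2 ratios of 0.64, 2.41 and 2.49. With 1 plate per day and treatment these ratios carry no test. Over the 3 days Kit averaged 502 ± 229.9 CPM with dexamethasone and 168 ± 135 CPM in control cells (SD over days, n = 3 plates each).

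In a fit with day and dexamethasone as additive terms, the log2 fold change of Kit for dexamethasone over control was 1.86 (SE 0.45), with an adjusted p of 0.457 by edgeR's quasi-likelihood test with Benjamini-Hochberg adjustment. That test called 0 of 20040 genes in this comparison (0% in each direction), and 2070 genes (10.3%) had an unadjusted p under 0.05. DESeq2's Wald test called 501 genes higher (2.5%) and 757 lower (3.78%), and among the members Kit at an adjusted p of 6.62e-05, Cd48 at 0.000295 (both higher) and Itgam at 0.000887 (lower). When only the 4326 genes with a mean of at least 50 CPM were tested, edgeR called 18 genes higher (0.416%) and 20 lower (0.462%), and Kit stood at an adjusted p of 0.0657. Kit was higher with dexamethasone on each day as were 19.1% of all genes tested, and 15.5% were lower on each day. The main fit has 2 residual degrees of freedom, and a p-value from it reflects how these 6 plates differ among themselves, which may be technical. In a plate sum, fewer cells with a gene and less RNA per cell cannot be told apart, so the single cells are described beside each sum.

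In single cells, the median Kit level was 442, 675 and 216 CPM with dexamethasone on days 1, 2 and 3, against 267, 14 and 0 CPM in control cells. The upper quartile on day 3 was 391 CPM with dexamethasone and 12.5 CPM in control cells. A Kit count was found in 100% of dexamethasone cells on days 1 and 2 (lower limits 96.2% and 96.1%, exact Clopper-Pearson intervals at 95%) and in 94.7% on day 3 (88% to 98.3%). In control cells the share was 96.8% (91% to 99.3%) on day 1, 78.1% (68.5% to 85.9%) on day 2 and 48.4% (37.9% to 59%) on day 3. Cells thinned to 300000 counts gave 100%, 100% and 93.5% with dexamethasone and 96.7%, 64.5% and 33.7% in control. With dexamethasone, 92 of 92 cells of day 2 held Kit at 10 CPM or more, against 49 of 96 control cells, and on day 3 these were 78 of 94 dexamethasone cells and 24 of 93 control cells.

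**Figure D2:**
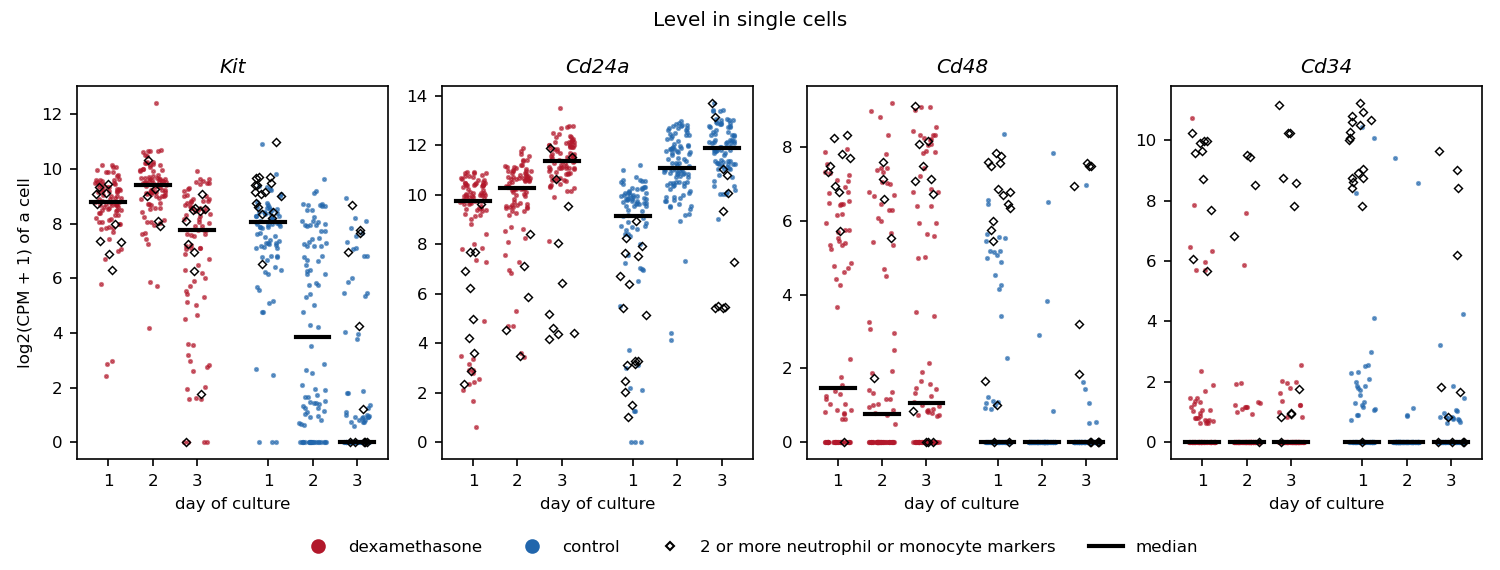
Level of Kit, Cd24a, Cd48 and Cd34 in single cells, as log2(CPM + 1), by day of culture. Each point is a cell, red for dexamethasone and blue for control, open diamonds are cells with at least 2 neutrophil or monocyte markers, and thick lines are medians. Kit is spread over its whole range in control cells of day 2 and at or near 0 in most control cells of day 3, and high Cd34 is carried mainly by the open diamonds.

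The difference in Kit did not rest on a single cell: the cell with the most Kit counts held 3.79%, 5.2% and 4.38% of the Kit counts of the dexamethasone plates and 7.13%, 8.13% and 14.4% of those of the control plates. Without the cells carrying neutrophil or monocyte markers, the log2 fold change of Kit for dexamethasone was 2.03. The summed level of 15 erythroid maturation and lineage genes, among them globins and Tfrc, differed between the same plates, at 3236, 4873 and 12923 CPM with dexamethasone and 4328, 22021 and 35117 CPM in control. The summed level of 10 megakaryocyte markers was 244, 367 and 145 CPM with dexamethasone and 249, 118 and 116 CPM in control. The part of either marker list in the Kit difference was not tested.

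Cd24a, on chromosome 10 from 43578284 to 43584265, had a higher level on each later day in both treatments. Its plate level was 825, 1253 and 2698 CPM with dexamethasone on days 1, 2 and 3, and 652, 2689 and 4183 CPM in control cells. The dexamethasone plate was above the control plate on day 1 and below it on days 2 and 3, with log2 ratios of 0.34, -1.10 and -0.63. Day 3 was 3.27 times day 1 with dexamethasone and 6.41 times day 1 in control. The log2 fold change of day 3 over day 1 in the additive fit was 2.14 (SE 0.39), with an adjusted p of 0.225 by edgeR's quasi-likelihood test. That test called 0 genes of 20040 for day 3 over day 1 (0%), with 2907 genes (14.5%) at an unadjusted p under 0.05. Among the 4326 genes at a mean of 50 CPM or more, edgeR called 322 genes higher (7.44%) and 223 lower (5.15%) on day 3, with Cd24a higher at an adjusted p of 0.0138 and Kit lower at 0.0463. DESeq2 called 1059 genes higher (5.28%) and 1002 lower (5%), and of the members Cd24a higher at 1.68e-07, Kit lower at 0.00138 and Cd34 lower at 0.0136.

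The higher level of Cd24a on later days was seen in the body of cells and not only at the top. The median cell held 852, 1222 and 2663 CPM with dexamethasone and 568, 2142 and 3749 CPM in control on days 1, 2 and 3. The lowest 10% of cells lay under 6.5 CPM on day 1 with dexamethasone and 3.82 CPM in control, and under 1005 CPM with dexamethasone and 1059 CPM in control on day 3. All cells of both treatments had a Cd24a count on days 2 and 3, as did 94 of 94 dexamethasone cells and 91 of 94 control cells on day 1. Cd24a belongs to a group of similar gene copies, and counts on it may lack reads that also map to a copy.

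Kit and Cd24a, whose products were both stained for the sort, were related in a way that differed between plates. Across the cells of a plate, the Pearson correlation of their log2(CPM + 1) values was 0.59, 0.33 and -0.11 with dexamethasone on days 1, 2 and 3, and -0.06, -0.60 and -0.49 in control cells (n = 92 to 96 cells a plate). Cells with high Kit thus tended to have high Cd24a on the first dexamethasone plate and low Cd24a on the later control plates. Spearman values were 0.54, 0.17 and -0.42 with dexamethasone and -0.31, -0.66 and -0.45 in control. Cells carrying neutrophil or monocyte markers held less Cd24a as a sum than the other cells on each plate where they were compared, though some single ones of day 3 held high levels. Without the cells carrying these markers, the Pearson values were 0.60, 0.31 and -0.53 with dexamethasone and 0.08, -0.60 and -0.54 in control. The value of the third dexamethasone plate moved most. The cells of a plate share a library pool and differ in depth, and Kit itself had correlations of 0.04 to 0.43 with the log2 total count of a cell over the 6 plates. No test was made of these correlations.

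Cells were also split at a Kit level of 10 CPM, and Cd24a was lower in cells with Kit on the 3 plates where both classes had a median. The dexamethasone plates of days 1 and 2 and the control plate of day 1 had 3, 0 and 5 cells without Kit, and no median was taken. With dexamethasone on day 3, the median Cd24a level was 2406 CPM in 78 cells with Kit and 4741 CPM in 16 cells without it, on control day 2 it was 1421 CPM in 49 cells with Kit and 3814 CPM in 47 without, and on control day 3 it was 1724 CPM in 24 cells with Kit and 4509 CPM in 69 without. Between 4 and 7 cells of each of these plates lay within 5 to 20 CPM of Kit, near the dividing level, and the median total count was higher in cells with Kit on all 3 plates, at 1133909, 1332094 and 1514617 counts against 967504, 860244 and 1132850.

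**Figure D3:**
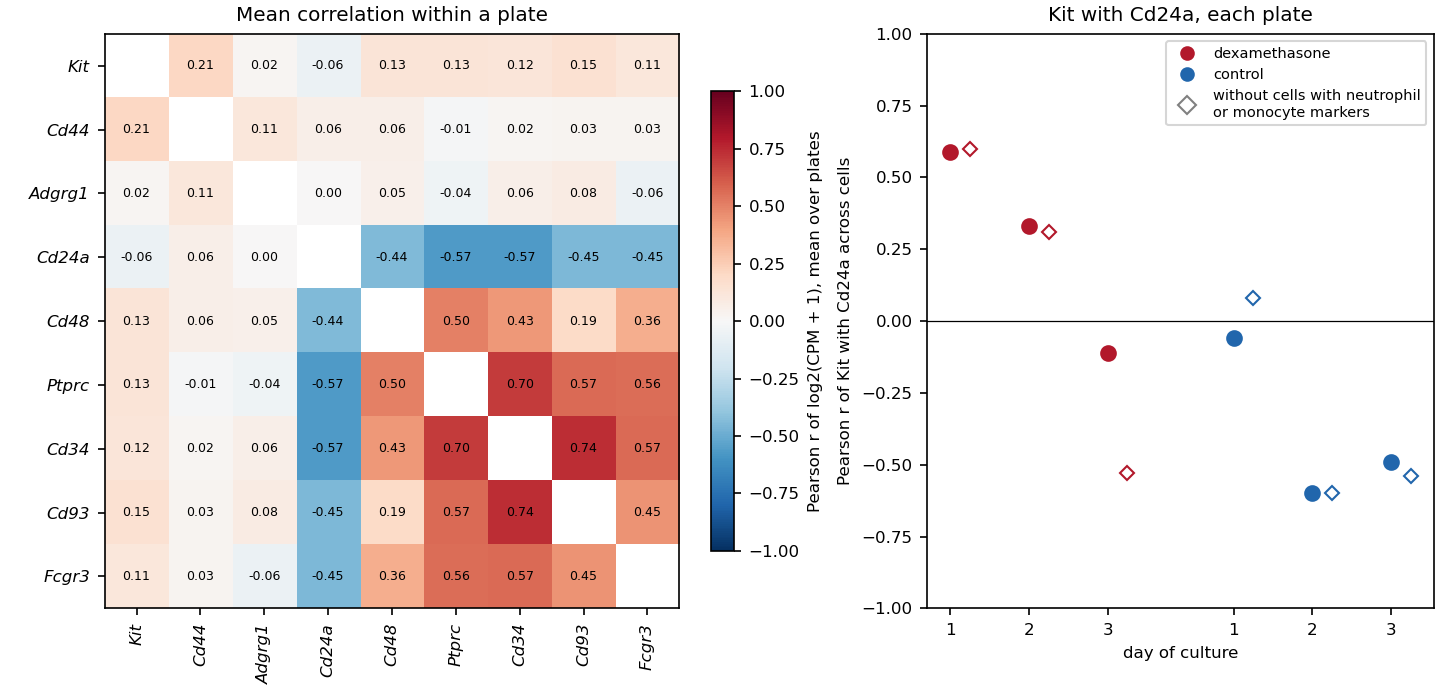
Left, mean over plates of the Pearson correlation of log2(CPM + 1) between pairs of the genes across the cells of a plate, without Itgam. Right, the correlation of Kit with Cd24a on each plate by day of culture, dexamethasone in red and control in blue, with diamonds for the values without cells carrying neutrophil or monocyte markers. Cd34, Cd93, Fcgr3 and Ptprc form a block of positive values, Cd24a is negative with each of them, and Kit with Cd24a runs from 0.59 on the first dexamethasone plate to -0.60 on the second control plate.

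Among 6826 genes with a mean of at least 20 CPM, those whose levels followed Kit most closely from cell to cell were Cmtm7, with a mean within-plate Pearson correlation of 0.45 over 6 plates, B4galnt1 at 0.44, Ripor1 and Ikzf1 at 0.42 each and the cytosolic chaperone Hsp90ab1 at 0.41. The lowest values were those of Slc25a37, the mitochondrial iron importer of erythroid cells (-0.36), the spermine oxidase Smox (-0.35) and the histone variant gene H3f3a (-0.35). Values of single plates ran from 0.17 to 0.74 for Cmtm7 and from -0.78 to 0.03 for Slc25a37, and the lowest plate was at 0.12 for Ripor1 and 0.15 for Hsp90ab1. Mean Spearman values were 0.31 to 0.34 for the 5 highest genes and -0.36 to -0.32 for the 3 lowest. Kit also had correlations of 0.04 to 0.43 with the log2 total count of a cell, and the part of depth in these values was not tested. Cmtm7 had plate levels of 244, 177 and 129 CPM with dexamethasone and 178, 53.6 and 77.5 CPM in control. Slc25a37 was at 58.5, 48.7 and 335 CPM with dexamethasone and at 97.8, 937 and 1407 CPM in control. Among the members, Cd44 had a mean correlation with Kit of 0.21, and Adgrg1 one of 0.02.

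Cd48 encodes a membrane-anchored protein of the SLAM family that binds CD244 and CD2, and its gene lies on chromosome 1 from 171682009 to 171705258. Its level was 42.7, 58.9 and 87.7 CPM with dexamethasone on days 1, 2 and 3, and 25.7, 2.97 and 11.3 CPM in control cells. Every dexamethasone plate was above every control plate, which held for 7.14% of the 20040 genes tested, while 5.44% had every dexamethasone plate below. Cd48 was the 1 member of 10 in the first class. Itgam was the 1 in the second, but its counts on the control plate of day 2 all came from 1 cell. For Cd48, dexamethasone cells had 1.66, 19.8 and 7.74 times the control level of the same day. The log2 fold change over the 3 days was 2.69 (SE 0.82), with an adjusted p of 0.457 by edgeR's quasi-likelihood test.

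Cd48 was carried by many cells with dexamethasone and by few control cells after day 1. The share of cells with a count was 63.8% (53.3% to 73.5%), 52.2% (41.5% to 62.7%) and 61.7% (51.1% to 71.5%) with dexamethasone on days 1, 2 and 3. In control cells it was 42.6% (32.4% to 53.2%), 5.21% (1.71% to 11.7%) and 12.9% (6.85% to 21.5%). At 300000 counts per cell the shares were 53.8%, 43.5% and 48.9% with dexamethasone and 37%, 3.23% and 8.7% in control. On each plate 5 cells held a large share of the Cd48 counts, 28.2%, 60.4% and 33.3% with dexamethasone on days 1, 2 and 3 and 43.7%, 100% and 98.3% in control. A single cell held 51.6% of them on the control plate of day 2. Without the cell with the most counts of each plate, the log2 ratio of day 2 was 5.05, against 4.30 with it.

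On all plates together, 147 cells had Cd48 at 10 CPM or more, and 142 of these also had Kit at that level. Cells with neutrophil or monocyte markers made up 37 of the 147. They held 27.3%, 5.87% and 15.2% of the Cd48 counts of the dexamethasone plates and 63.5%, 0% and 86.5% of those of the control plates. With these cells left out, the log2 fold change for dexamethasone was 3.86. On the dexamethasone plates the median Cd24a level was lower in cells with Cd48 at 10 CPM or more than in the others, at 479, 831 and 1814 CPM against 1073, 1276 and 3256 CPM on days 1, 2 and 3. Median Kit in the same cells was 406, 611 and 364 CPM with Cd48, against 509, 684 and 123 CPM without it, so the order of the 2 classes of cells was not the same on the 3 days.

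**Figure D4:**
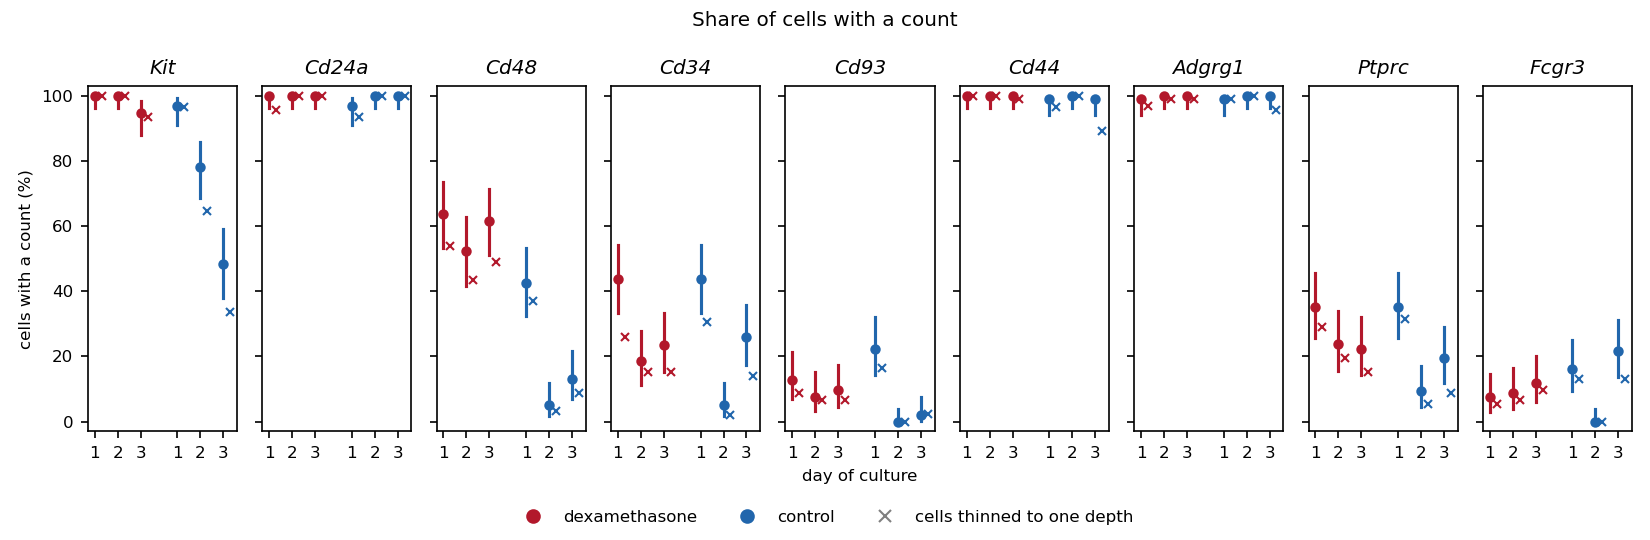
Share of cells with at least 1 count of each gene, by day of culture, on plates with dexamethasone (red) and control plates (blue). Bars are exact Clopper-Pearson intervals at 95%, which cover counting error only, and crosses are shares in cells thinned to 300000 counts. Kit and Cd48 separate the treatments on days 2 and 3, and Cd24a, Cd44 and Adgrg1 are found in nearly all cells.

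Cd34, which encodes a sialomucin of early progenitors and endothelium, lies on chromosome 1 from 194938819 to 194961279. Its plate level was 71.2, 17.5 and 48.5 CPM with dexamethasone on days 1, 2 and 3, and 179.7, 10.1 and 27.2 CPM in control. The day 1 plates were highest in both treatments, and the treatments overlapped. Dexamethasone cells had 0.396, 1.74 and 1.78 times the control level, so the direction on day 1 was the opposite of that on days 2 and 3. Day 2 over day 1 gave a log2 fold change of -3.23 (SE 0.68) with an adjusted p of 0.297 by edgeR's quasi-likelihood test. That test called 0 of 20040 genes for day 2 over day 1 (0%), with 2446 (12.2%) at an unadjusted p under 0.05. DESeq2 called 826 genes higher (4.12%) and 724 lower (3.61%) on day 2, with Cd34 lower at an adjusted p of 3.4e-07, Itgam lower at 0.0364 and Cd24a higher at 0.00544. At a mean of 50 CPM or more, edgeR called 159 genes higher (3.68%) and 74 lower (1.71%), with Cd34 lower at 0.0325.

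Few cells carried most of the Cd34 counts. The median cell had 0 CPM on every plate, and 5 cells held 67.6%, 97% and 98.7% of the counts with dexamethasone and 51.3%, 100% and 98.9% in control. Cells with neutrophil or monocyte markers held 63.7%, 88.5% and 99.5% of the Cd34 counts on the dexamethasone plates. On the control plates of days 1 and 3 they held 83.1% and 98.5%. The control plate of day 2 had no such cell and also the lowest Cd34 level. Left without these cells, the log2 fold change of Cd34 for dexamethasone was -1.17, against 0.12 with them.

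Cd93, which encodes a lectin-like glycoprotein of early progenitors and endothelium, was at low levels. It was at 9.73, 4.06 and 3.25 CPM with dexamethasone and at 11.4, 0 and 3.65 CPM in control. On day 2 the dexamethasone level was at least 146-fold higher, taking 3 counts as the floor of the control plate, which equals 0.0278 CPM. Cells with a Cd93 count numbered 12 of 94, 7 of 92 and 9 of 94 with dexamethasone. Control cells with a count were 21 of 94, 0 of 96 and 2 of 93, and 0 of 96 cells allows a share of cells with a count of up to 3.12% (3 cells of the total). Cells with neutrophil or monocyte markers held 44.6%, 89.1% and 99.4% of the Cd93 counts on the dexamethasone plates. In control they held 67.2% on day 1 and 100% on day 3, and the control plate of day 2 had no such cell. In the cells without these markers, Cd93 was at 0.476 CPM on the dexamethasone plate of day 2. On the dexamethasone plate of day 1, a single cell without such markers held 54.3%.

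Ptprc encodes the receptor-type tyrosine phosphatase CD45, which is found on most nucleated blood cells and is lost as erythroid cells mature. Its level was 25, 19.6 and 14.7 CPM with dexamethasone, against 26.7, 9.91 and 26.1 CPM in control cells, and the groups overlapped. A Ptprc count was found in 35.1%, 23.9% and 22.3% of dexamethasone cells and in 35.1%, 9.38% and 19.4% of control cells on days 1, 2 and 3. In all, 89.8% of its counts on the dexamethasone plate of day 3 and 99.7% on the control plate of that day were in cells with neutrophil or monocyte markers, 11 on each plate. On the dexamethasone plates of days 1 and 2 these cells held less, 45.2% and 37.4%.

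Fcgr3, whose product is the low-affinity IgG receptor CD16, was at 2.19, 7.96 and 9.33 CPM with dexamethasone and at 9.24, 0 and 39.9 CPM in control. It had 0.237 and 0.234 times the control level on days 1 and 3. On day 2 it was at least 286-fold higher, since 0 of 96 control cells had a count, and 1 cell held 50.9% of the counts of the dexamethasone plate. Cells with neutrophil or monocyte markers held 80.7%, 26.3% and 97.6% of its counts on the dexamethasone plates. They held 90.3% on the first control plate and 99.3% on the third, and the second control plate had no such cell. On the control plate of day 3, 20 cells had a count but only 8 had at least 5, and 1 cell held 47.5% of the counts. Fcgr3 is similar in sequence to Fcgr2b, the other gene of the CD16/32 antibody, and the authors' counting may have split or dropped shared reads.

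Itgam encodes the alpha chain of the integrin CD11b/CD18 and was at or near 0 on most plates. It had 44, 0 and 0 counts on the dexamethasone plates and 123, 51 and 900 counts on the control plates, or 0.366, 0 and 0 CPM with dexamethasone and 1.37, 0.473 and 8.03 CPM in control. One cell held 90.2% of the counts of the control plate of day 3, and the 51 counts of control day 2 came from 1 cell. On day 3 the dexamethasone level was at least 268-fold lower, taking 3 counts as its floor. The gene shares 68.7% of its 5024 exon bases with the overlapping Gm49368, so that its counts are uncertain.

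Cd44 and Adgrg1 were at high and even levels in both treatments. Cd44, the hyaluronan receptor, was at 264, 384 and 281 CPM with dexamethasone and at 346, 375 and 358 CPM in control. Adgrg1, an adhesion G protein-coupled receptor also known as GPR56, was at 338, 326 and 295 CPM with dexamethasone and at 379, 412 and 287 CPM in control. Log2 ratios on the 3 days were -0.39, 0.03 and -0.35 for Cd44 and -0.16, -0.34 and 0.04 for Adgrg1. The log2 fold changes for dexamethasone were -0.23 (SE 0.13) and -0.15 (SE 0.12), with adjusted p of 0.59 and 0.714 by edgeR. All but 2 of 563 cells had a Cd44 count, and all but 2 had an Adgrg1 count. The spread between cells differed more than the sums: the Cd44 level under which the lowest 10% of cells lay on day 3 was 101 CPM with dexamethasone and 3.17 CPM in control, beside medians of 271 and 298 CPM.

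Over the 10 genes tested, the members with a log2 ratio for dexamethasone over control of at least 1 in size differed from day to day, and Itgam and Fcgr3 were past it on all 3 days, Fcgr3 in the opposite direction on day 2. On day 1 no member was at 1 or above (13.7% of all genes) and 3 were at -1 or below (11.7% of all genes), namely Cd34, Fcgr3 and Itgam. On day 2, 4 members, Kit, Cd48, Cd93 and Fcgr3, were at 1 or above (20%), and Cd24a and Itgam were at -1 or below (15%). On day 3, Kit and Cd48 were at 1 or above (21.6%), and Fcgr3 and Itgam at -1 or below (13.7%). The median log2 fold change of the members over the 3 days was -0.07, against 0.07 over all genes tested.

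The cells with neutrophil or monocyte markers were compared with the other cells of the same plates, as sums per plate and class with the plate as a block, on the 5 plates with at least 5 such cells. They had higher levels of Cd34 and lower levels of Cd24a, while Kit was higher or lower in them depending on the plate. Cd34 was at 580.1, 351 and 432 CPM in these cells on the dexamethasone plates, against 28.9, 2.16 and 0.272 CPM in the other cells, and at 935 and 247 CPM on control days 1 and 3, against 37.7 and 0.479 CPM. The log2 fold change of Cd34 was 7.07 (SE 1.21), with an adjusted p of 0.0392 by edgeR's quasi-likelihood test. Cd24a was at 118, 117 and 850.5 CPM in the marked cells on the dexamethasone plates and 93.3 and 2212 CPM on the control plates. In the other cells it was at 913, 1340 and 3087 CPM with dexamethasone and 791 and 4706 CPM in control. The log2 fold change of Cd24a was -2.51 (SE 0.38), with an adjusted p of 0.0315 by the same edgeR test. The members are not among the markers that chose the cells.

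This test called 245 genes higher (1.35%) and 207 lower (1.14%) of 18184, and 4025 (22.1%) had an unadjusted p under 0.05, with 2 of 10 members called beside 2.49% of all genes. Cd34 lost its call at the threshold of 0.05 when any 1 of the 5 plates was left out, with adjusted p between 0.0668 and 0.123 by edgeR, without a filter on low counts (0.052) and with at least 3 markers (0.107). Cd24a kept its call without the third control plate (adjusted p 0.0177) and lost it without any of the other 4 (0.0932 to 0.123), and both fold changes kept their direction in these fits. DESeq2 called 1586 genes higher (8.72%) and 1478 lower (8.13%), among them Cd24a lower and Cd34, Cd93, Fcgr3, Ptprc, Cd48, Adgrg1 and Itgam higher.

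Fcgr3, Ptprc and Cd93 were higher in the marked cells on each of the 5 plates without passing the edgeR test. Log2 fold changes were 6.40 (SE 1.22) for Fcgr3, with an adjusted p of 0.051, 5.05 (SE 1.19) for Ptprc at 0.0755 and 6.87 (SE 1.79) for Cd93 at 0.0975, all by edgeR. A count of Ptprc was found in 48 of 54 marked cells and in 79 of 413 others, of Cd93 in 31 of 54 and 20 of 413, and of Fcgr3 in 31 of 54 and 30 of 413. Cd48 had a log2 fold change of 2.21 (SE 0.84) with an adjusted p of 0.199, and Adgrg1 one of 0.84 (SE 0.24) at 0.116. Itgam was at 0 in both classes on the dexamethasone plates of days 2 and 3 and higher in the marked cells on the other 3 plates, with a log2 fold change of 5.70 (SE 2.13) and an adjusted p of 0.219 by edgeR. Kit was at 355, 596 and 230.5 CPM in the marked cells on the dexamethasone plates, against 516, 765 and 300.4 CPM in the others, and at 535 and 129 CPM on control days 1 and 3, against 284 and 42.4 CPM. The marked cells thus had less Kit than the others on the 3 dexamethasone plates and more on the 2 control plates, with a log2 fold change of 0.23 (SE 0.35) and an adjusted p of 0.744. Whether this difference between treatments exceeds the spread between plates was not tested.

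**Figure D5:**
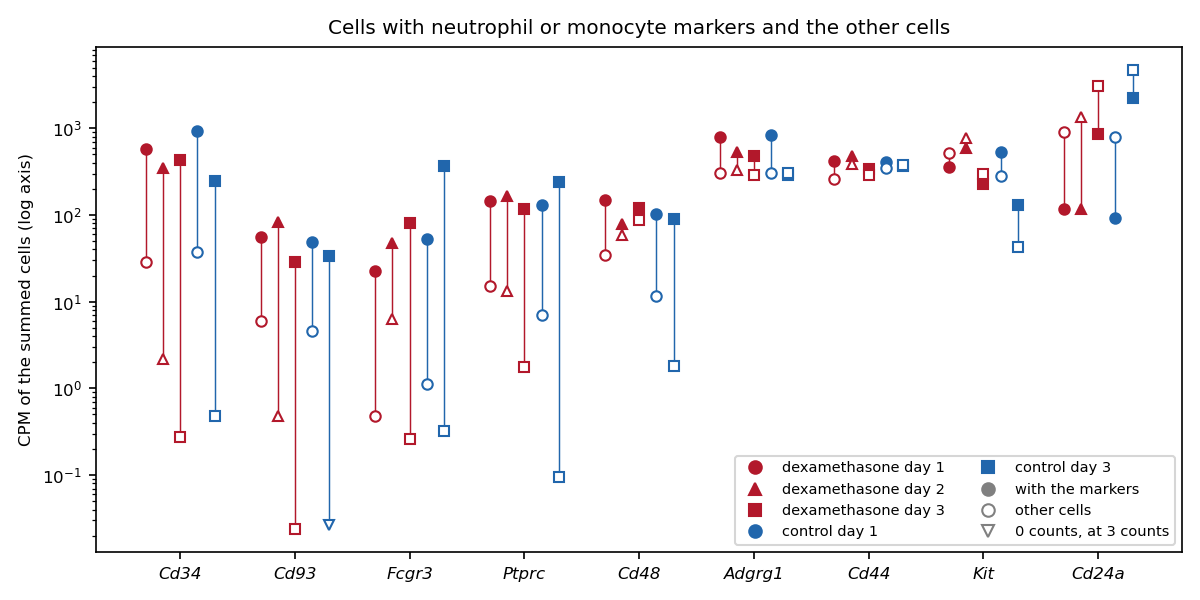
Level of each gene in summed cells with at least 2 neutrophil or monocyte markers (filled) and in the other cells of the same plate (open), in CPM on a log axis, for the 5 plates with at least 5 such cells. Lines join the 2 classes of a plate, red for dexamethasone and blue for control, and an open triangle marks a sum of 0 counts drawn at the level of 3 counts. Cd34, Cd93, Fcgr3, Ptprc and Cd48 are higher in the marked cells of every plate shown, and Cd24a is lower.

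The summed level of the 14 neutrophil and monocyte markers was 320.3, 529 and 679 CPM with dexamethasone and 1343, 4.53 and 2119 CPM in control, and Mpo, their most abundant member, was at 276, 426 and 442 CPM with dexamethasone and 1192, 2.39 and 1059 CPM in control. Cd34, Cd93, Fcgr3 and Ptprc met in the same cells: 40 cells had at least 3 of these 4 genes at 10 CPM or more, 36 of them had 2 or more neutrophil or monocyte markers, and 39 also had Kit at 10 CPM or more. The mean within-plate correlation was 0.74 for Cd34 with Cd93 (5 plates) and 0.70 for Cd34 with Ptprc (6 plates). Without the marked cells these means were 0.36 (4 plates) and 0.38 (6 plates). For Fcgr3 with Cd34 and with Ptprc the means were 0.57 and 0.56, and 0.10 and 0.07 without these cells (5 plates each). For Cd93 with Fcgr3 and with Ptprc they were 0.45 and 0.57 (5 plates), and 0.14 and 0.26 without these cells (4 plates). The mean correlation of Cd24a with Cd34 was -0.57, and -0.25 without the marked cells. Mean Spearman values over all cells were smaller in size, at 0.44 for Cd34 with Cd93, 0.49 for Cd34 with Ptprc and -0.24 for Cd24a with Cd34.

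Mast cell and basophil markers could be compared on only 2 plates, the dexamethasone plate of day 2 with 10 such cells and the control plate of day 1 with 6. Cd34 was at 97 and 919 CPM in these cells, against 10.7 and 123 CPM in the other cells of the same plates. Kit was at 991 and 478 CPM, against 760 and 306 CPM. The edgeR test called 0 of 15565 genes (0% in each direction), with 755 (4.85%) at an unadjusted p under 0.05, whereas DESeq2 called 281 genes higher (1.81%) and 119 lower (0.765%). The log2 fold changes were 3.04 (SE 0.22) for Cd34 and 0.51 (SE 0.17) for Kit, with adjusted p of 0.475 and 0.747 by edgeR. DESeq2 called Cd34, Cd93, Fcgr3 and Ptprc higher.

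Genes of the remaining sort and depletion antibodies differed in level. Tfrc, the transferrin receptor CD71, was at 753, 1429 and 1591 CPM with dexamethasone and at 1337, 3905 and 5180 CPM in control, lower with dexamethasone on each day, with a log2 fold change of -1.33 (SE 0.20) and an adjusted p of 0.457 by edgeR. Itga2b, the integrin chain CD41 of megakaryocytes and early progenitors, was at 151, 175 and 151 CPM with dexamethasone and at 105, 44.4 and 50 CPM in control (log2 fold change 1.37, SE 0.33). Ly6a, which encodes Sca-1, was at 0 on the 3 dexamethasone plates and at 0.424, 23.8 and 0 CPM in control. Its relative Ly6e, listed with it although no antibody of the labels names it, was at 175, 116 and 148 CPM with dexamethasone and at 166, 77 and 86.7 CPM in control. Ly6g and Cd3e were at 0 on every plate but the dexamethasone plate of day 3, where they were at 0.16 and 0.0399 CPM. Fcgr2b, the inhibitory IgG receptor CD32, was at 4.97, 3.24 and 9.11 CPM with dexamethasone and at 25, 0 and 24.1 CPM in control. Of 7 such genes 5 were tested, edgeR called none of them, and with genes at a mean of 50 CPM or more it called Tfrc lower at an adjusted p of 0.0463.

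Genes of the Kit pathway ranged in log2 fold change for dexamethasone over control between -0.85 for Pik3r1, a regulatory subunit of PI3 kinase, and 1.28 for the adaptor gene Dok2. Of 31 genes 30 were tested, and edgeR called none for dexamethasone in either direction. Of these, 12 were higher on each day and 5 lower on each day, beside 19.1% and 15.5% of all genes tested, and their median log2 fold change was 0.31, against 0.07 over all genes. Dok2 was at 93, 71.4 and 53.8 CPM with dexamethasone and at 86.3, 17.7 and 16.6 CPM in control. Lyn, a Src family kinase activated by Kit, was at 123, 233 and 162 CPM with dexamethasone and at 97.1, 82.5 and 76.4 CPM in control. The adaptor gene Shc1 was at 78, 74.7 and 80.9 CPM with dexamethasone and at 109, 146 and 149 CPM in control, with every dexamethasone plate below every control plate. Cbl, a ubiquitin ligase that turns the receptor over, was at 96, 189 and 79.8 CPM with dexamethasone and 95.8, 94.8 and 59.7 CPM in control. Kitl, which encodes SCF itself, was at 0 counts on 5 plates and at 1.65 CPM on the control plate of day 2.

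Of 16 genes tested whose products bind or anchor the 10 proteins, 2 were higher and 2 lower on each day with dexamethasone, beside 19.1% and 15.5% of all genes. The edgeR test called none of them, and the median log2 fold change was -0.04, against 0.07 over all genes. Ptprcap, whose product associates with CD45, had the highest log2 fold change of the list at 1.82 (SE 0.38), with 118, 66.1 and 71.6 CPM with dexamethasone and 61.3, 18.3 and 11.4 CPM in control. Cd81, a tetraspanin, was at 484, 825 and 821 CPM with dexamethasone and at 433, 540.5 and 629 CPM in control. Msn, Rdx and Ezr, which tie CD44 to the actin cortex, had log2 fold changes of 0.19 (SE 0.12), -0.33 (SE 0.10) and -0.20 (SE 0.20).

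Other surface proteins of blood progenitors were scanned as a list of 36 genes, of which 32 were tested and edgeR called none for dexamethasone. With dexamethasone, 4 were higher on each day and 3 lower on each day, beside 19.1% and 15.5% of all genes, and the median log2 fold change was 0.25, against 0.07 over all genes. Csf2rb, the shared beta chain of the receptors for IL-3 and GM-CSF, differed most between days among the 4 most abundant, at 20.7, 685 and 356 CPM with dexamethasone and at 41.4, 367 and 722 CPM in control. Cd47, the signal that keeps macrophages from engulfing a cell, was at 608, 716 and 935 CPM with dexamethasone and at 664, 1401 and 1895 CPM in control. The integrin genes Itgb1 and Itga4 had log2 fold changes for dexamethasone of 0.09 (SE 0.18) and 0.24 (SE 0.13).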

How the data were processed

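Values in the deposited table are raw counts for each gene in each well, made by the authors with STAR 2.4, featureCounts and the mouse build GRCm38, per the submitters' processing notes. The sources used here do not give the annotation release, strand setting or handling of multiply mapped reads, and no molecular identifiers are stated, so amplified copies count again. Of 576 value columns, 575 matched a labelled well and 1 was not used. Its header line is longer than the others by 1 empty field; leaving this out, Mt2, Fkbp5, Per1 and Tsc22d3, which glucocorticoids induce, were each higher on every dexamethasone plate than on every control plate.

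Wells with at least 50000 counts, 1500 genes and at most 20% mitochondrial counts were kept, which removed 12. No doublet caller was run on sorted wells. Counts of kept cells were summed per plate, scaled by TMM and tested with edgeR 4.0.16 (quasi-likelihood, filterByExpr, day and dexamethasone additive, Benjamini-Hochberg adjustment over all tested genes, threshold 0.05). SE is the log2 fold change divided by the square root of F. Ratios within a day use a prior count of 2. DESeq2 1.42.0 and limma 3.58.1 served as alternatives. Coordinates and exon lengths are from GENCODE vM21. Promoter windows are RefSeq's.

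All members are named; other named genes are the 5 most and 3 least like Kit and the 4 most abundant of each list, of which 1 is not reported here. Likeness is the mean within-plate Pearson correlation among genes at a mean of 20 CPM or more. Kitl, Gata1, Mpo, Ly6a, Ly6g, Cd3e, Pik3r1, Dok2 and Ptprcap were added after their values were seen. The members and lists were chosen with earlier results of these data known. The kept cells of a plate held 88178493 to 116623968 counts, and intervals cover counting error only.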

Additional observations from a re-analysis of the deposited data

Results flagged for a closer look

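Cd48 differed between day 3 and day 1 in opposite directions in the 2 treatments, with a log2 ratio of 1.04 with dexamethasone and -1.18 in control, and the difference was not tested.

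The log2 ratio of Fcgr3 for dexamethasone over control changed direction with the day, at -2.07 on day 1, at least 8.16 on day 2, where the control plate had 0 counts and the floor of 3 counts was used, and -2.09 on day 3. Day 2 over day 1 was likewise opposite, at 1.85 with dexamethasone and at -8.38 or below in control, again against the floor. Neither difference was tested, and the number of cells with neutrophil or monocyte markers on the same plates was 10, 5 and 11 with dexamethasone and 17, 0 and 11 in control.

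Itgam was lower on day 3 than on day 1 with dexamethasone, with a log2 ratio of -3.61 or below against the floor of 3 counts, and higher in control, at 2.53. This was not tested, and without the cell with the most counts of each plate the control ratio was -0.35.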

How the results depend on the processing

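No paired analysis was possible by replicate number, because the numbers in the labels name wells of a plate. The tests use sums of plates, which share no replicate number. Day was a term of the main fit, so dexamethasone and control plates were compared within each day. The cells with neutrophil or monocyte markers were compared within each plate. Of the counts of called genes in the main fits, those for dexamethasone, day 3 and day 2 stayed at 0 with other size factors, without a filter, with any plate left out, without the cell filter, without either class of marked cells and with limma on equally weighted cells. DESeq2 called 1258, 2061 and 1550 genes instead, and testing only genes at a mean of 50 CPM or more gave 38, 545 and 233. For the cells with neutrophil or monocyte markers, 452 calls became 3064 with DESeq2, 262 without a filter, 46 with at least 3 markers and 45 to 336 with 1 plate left out. For mast and basophil markers DESeq2 called 400 genes; leaving out a plate or asking for 3 markers left too few plates and was not run. Pairs of members with a mean correlation of at least 0.4 in size numbered 13 with Pearson and 3 with Spearman.

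Kit and Cd48 kept a positive log2 fold change for dexamethasone under every alternative run. Their ranges with 1 plate left out were 1.51 to 2.45 and 1.84 to 3.63. Both were higher with dexamethasone on each day, so leaving out a plate could not turn the sign and does not test it. Leaving out either plate of a day drops the comparison of that day, so both runs of a day gave nearly the same value. Of the other alternative values for the members' fold changes, 258 kept direction and call, 22 gained a call, 2 lost it and 13 changed sign. Without cells carrying neutrophil or monocyte markers, the dexamethasone values of Cd34 (-1.17) and Fcgr3 (0.88), the day 3 value of Fcgr3 (-1.56) and the day 2 values of Fcgr3 (1.31) and Ptprc (0.28) changed sign. Without mast or basophil cells the dexamethasone values of Cd34 (-0.10) and Ptprc (-0.14) did. Other size factors and DESeq2 gave -0.01 for Ptprc. With equally weighted cells, Fcgr3 for dexamethasone (0.59), Cd44 (-0.02) and Itgam (0.17) for day 3 and Adgrg1 for day 2 (-0.13) changed sign.

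With 1 plate left out, ranges that crossed 0 were, for dexamethasone, -0.29 to 0.81 (Cd34), -0.20 to 3.78 (Cd93), -2.09 to 3.02 (Fcgr3) and -0.47 to 0.44 (Ptprc). For day 3 they were -0.05 to 0.18 (Cd44), -1.48 to 1.41 (Cd48), -4.43 to 1.46 (Cd93), -2.04 to 5.99 (Fcgr3), -7.57 to 2.43 (Itgam) and -1.06 to 0.23 (Ptprc). For day 2 they were -0.12 to 0.19 (Adgrg1), -2.73 to 0.15 (Cd48), -12.93 to 1.85 (Fcgr3) and -1.20 to 0.60 (Kit), and for the marked cells -0.10 to 0.44 (Kit). The cause of these changes was not tested. With 1 plate a group, a difference smaller than the spread between plates was not detectable, and low shares depend on depth.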
